A study of Mus musculus with 8 samples.

Results

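The genes described here encode parts of the squamous cornified envelope and a few epithelial proteins that were higher after retinoic acid (RA): Sprr1a, Ivl, Ppl, Evpl, Tgm1, Tgm2, Upk1a, Wfdc3 and Wfdc18. They are 9 of the 18192 genes named on the array, and every probe set carrying one of these symbols was taken, 16 in all. The genes were selected with their measured RA responses in view, over both lines and within AML12, together with relatives of the same families. Their RA responses are therefore given as a description with no test. Only the differences between lines and between times, and the change of the RA response with time, were tested.

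The cells were AML12, an immortalised mouse hepatocyte line, and AML12 transfected with v-erbA, a viral oncoprotein derived from the thyroid hormone receptor and known to repress target genes of nuclear receptors. Both lines were cultured without treatment or with 1 µM RA, and RNA was taken at 3 h and at 24 h by the sample titles. The descriptions of 3 samples titled 24 h name 3 h instead. The titles were followed, so every result on time rests on them. This gives 8 groups with 1 Affymetrix array each, so no combination was replicated, and p-values rest on the departure of the 8 arrays from the fitted model. v-erbA was transfected, its transcript was not measured here, and the effect of v-erbA cannot be told apart from that of transfection or of the particular line. AML12 itself is known to derive from mice that carry a transforming growth factor alpha transgene, which both lines share.

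The cornified envelope is the protein shell that squamous keratinocytes lay down under the plasma membrane as they mature. Periplakin (Ppl) and envoplakin (Evpl) form its scaffold, involucrin (Ivl) and the small proline-rich proteins (Sprr genes) are its building blocks, and transglutaminases such as Tgm1 crosslink them. Tgm2, the tissue transglutaminase, is widely expressed and has long been known as an RA-responsive gene. Upk1a encodes uroplakin Ia, a tetraspanin of the bladder surface, and Wfdc3 and Wfdc18 encode small secreted proteins with whey acidic protein (WAP) four-disulfide core domains, a fold found in protease inhibitors. RA acts through nuclear receptors that bind DNA as heterodimers, typically at repeats of a short half-site, and in epidermis retinoids are known for restraining cornified envelope formation.

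The promoters of the 4 genes whose signals differed most with RA are shown. Sprr1a and Ivl are near neighbours on chromosome 3. Each line gives the 250 bases before the annotated start on the gene's strand, from RefSeq on GRCm38.p6. Capitals mark matches to TGANTCA (the AP-1 core), AGGTCA or AGTTCA (half-sites of nuclear receptors), each on either strand, and TATAAA on the strand shown. The windows are chr3:92485882-92486131 for Sprr1a, chr3:92573736-92573985 for Ivl, chr7:30612735-30612984 for Upk1a and chr2:164743268-164743517 for Wfdc3, all on the minus strand.
Sprr1a: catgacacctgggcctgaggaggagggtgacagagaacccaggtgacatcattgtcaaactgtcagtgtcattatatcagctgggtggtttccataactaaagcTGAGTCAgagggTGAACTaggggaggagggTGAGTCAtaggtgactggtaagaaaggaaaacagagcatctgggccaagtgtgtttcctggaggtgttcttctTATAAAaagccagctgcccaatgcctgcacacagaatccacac
Ivl: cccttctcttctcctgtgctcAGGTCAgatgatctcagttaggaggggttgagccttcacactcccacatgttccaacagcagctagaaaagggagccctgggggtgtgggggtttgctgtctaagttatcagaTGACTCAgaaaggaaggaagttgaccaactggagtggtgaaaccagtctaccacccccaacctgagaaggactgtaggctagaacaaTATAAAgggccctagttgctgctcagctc
Upk1a: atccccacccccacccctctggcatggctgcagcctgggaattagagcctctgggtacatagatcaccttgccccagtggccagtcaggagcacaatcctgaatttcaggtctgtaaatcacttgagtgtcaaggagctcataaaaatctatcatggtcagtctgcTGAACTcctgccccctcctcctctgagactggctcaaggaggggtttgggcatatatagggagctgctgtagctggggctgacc
Wfdc3: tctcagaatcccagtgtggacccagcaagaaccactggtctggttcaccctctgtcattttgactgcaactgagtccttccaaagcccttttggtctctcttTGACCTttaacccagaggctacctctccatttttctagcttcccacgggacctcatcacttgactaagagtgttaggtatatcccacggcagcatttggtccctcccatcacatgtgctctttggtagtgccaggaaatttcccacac

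Sprr1a held TGANTCA 146 and 116 bases before the start, AGTTCA at 134 and TATAAA at 43. Ivl held TGANTCA at 116, AGGTCA at 229 and TATAAA at 29. Upk1a held AGTTCA at 84 bases and Wfdc3 held AGGTCA at 148. Over 32851 promoter windows of the same length, 6.75% held TGANTCA, 14% AGGTCA, 11.8% AGTTCA and 7.59% TATAAA. For direct repeats, GGGTCA and GGTTCA also counted as half-sites. The direct repeat of half-sites spaced by 5 bases was found in 0.0883% of the windows and that spaced by 2 bases in 0.174%. Neither was found in the windows of Sprr1a, Ivl, Upk1a, Wfdc3, Wfdc18 or Tgm1. These matches describe letters and were not tested as binding sites. Ppl, Evpl and Tgm2 were named only, since the promoter table gave no entry for them.

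Signals are given in the deposited linear units. The median of all values pooled over the 8 arrays was 73.5 units and the medians of single arrays lay between 71.2 and 76.1. Testing required a signal above the pooled median on 2 or more of the 8 arrays, and below that level a signal is called dim. By this filter 12 of the 16 probe sets, from 7 of the 9 genes, were tested. The dim ones were Wfdc18, Tgm1, a further Wfdc3 probe set and a further Tgm2 probe set. Differences are on the scale of log2(signal + 19.9), which understates the change of dim probe sets, and ± denotes the SE of the limma fit.

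The arrays showed hepatocytes of a simple epithelial kind. Albumin (Alb) lay between 9364 and 11050 units and keratin 8 (Krt8) between 5682 and 7361, and 7 of the 8 hepatocyte markers measured exceeded the pooled median on all 8 arrays. Of 13 squamous keratinocyte markers on the platform, 8 were tested and 5 were under the pooled median on every array, namely Krt4, Krt13, Krt16, Dsc3 and Dsg1a. The summed signal of these markers was 906.7 to 1282 units untreated and 841.1 to 1257 with RA, and 0 of the 8 tested passed for RA (limma, 1 at an unadjusted p under 0.05). Others were measured: Krt5 (134.5 to 204.9 units), Krt10 (187.5 to 313.1) and Trp63 (93.31 to 198.1) exceeded the pooled median on all 8 arrays. Krt14 and Krt1 did so on the 4 arrays of 24 h, at 192.3 to 254.5 and 122.3 to 185.3 units, and were dim at 3 h. The name squamous refers to where the envelope genes are known to act.

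Sprr1a, a small proline-rich envelope precursor, had the widest RA response of the genes. In AML12 its signal was 267.6 units untreated and 660.7 with RA at 3 h, and 177.9 untreated and 1673 with RA at 24 h. With v-erbA it was 272.4 and 511.1 at 3 h and 211.5 and 1588 at 24 h. All 4 RA arrays, from 511.1 up, lay above all 4 untreated arrays, which reached 272.4 at most. The ratios of RA to untreated were 2.47 and 9.41 in AML12 and 1.88 and 7.51 with v-erbA, at 3 h and 24 h respectively. The gene has a single probe set on the array.

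Ivl, which encodes involucrin, was higher with RA in each line and higher with v-erbA in each treatment. Its brighter probe set gave 75.14 units untreated and 228.4 with RA at 3 h in AML12, and 51.99 and 134.7 at 24 h. With v-erbA it gave 207.3 and 559.1 at 3 h and 235.4 and 431.5 at 24 h. The untreated v-erbA array was slightly under the AML12 array with RA at 3 h and above it at 24 h, and the RA and untreated arrays overlapped over both lines. The RA ratios were 3.04 in AML12 and 2.70 with v-erbA at 3 h, and 1.83 with v-erbA at 24 h. In AML12 at 24 h the untreated array was dim, and RA was at least 1.66-fold higher there, counted on signal + 19.9 with the pooled median in place of the dim signal, as in every bound given here.

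The second Ivl probe set was dim on all 4 AML12 arrays, at 21.33, 52.97, 14.92 and 18.62 units in the order untreated and RA at 3 h, then untreated and RA at 24 h. With v-erbA it gave 53.82 and 123.6 at 3 h and 55.53 and 115.2 at 24 h. RA was at least 1.54-fold and 1.45-fold higher with v-erbA at 3 h and 24 h. The signals of the Ivl probe sets correlated at r = 0.96 on the log2 scale over the 8 arrays, which is a description of shared samples.

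Wfdc3, a WAP domain gene, was also higher with RA in each pair. The signal of its brighter probe set was 521.3 untreated and 978.8 with RA at 3 h and 563.9 and 1834 at 24 h in AML12. With v-erbA it was 297.2 and 460.6 at 3 h and 372.2 and 1271 at 24 h. The ratios were 1.88 and 3.25 in AML12 and 1.55 and 3.42 with v-erbA, so the response was larger at 24 h in both lines. The dim probe set of the gene stayed between 23.44 and 48.82 units with no common direction across the pairs.

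Upk1a, the uroplakin gene, was brighter with RA in both AML12 pairs, while its v-erbA pairs were close. In AML12 it was dim untreated, at 9.963 and 21.01 units at 3 h and 24 h, and 80.54 and 96.13 with RA, which is at least 1.08-fold and 1.24-fold higher. With v-erbA it gave 94.82 untreated and 100.3 with RA at 3 h, a ratio of 1.06, and 69.96 and 67.50 at 24 h, both dim. The untreated v-erbA array was brighter than the AML12 array with RA at 3 h and dimmer than it at 24 h. All 8 signals lay near or under the pooled median, the highest at 100.3 units.

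Wfdc18, the extracellular proteinase inhibitor gene of the WAP family, exceeded the pooled median on a single array, v-erbA with RA at 24 h, at 87.03 units. Its untreated partner there was 12.29, so RA was at least 1.14-fold higher. In AML12 at 24 h RA gave 36.30 against 4.444 untreated, both dim. At 3 h all 4 arrays were dim, from 5.761 to 21.44 units.

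**Figure D1:**
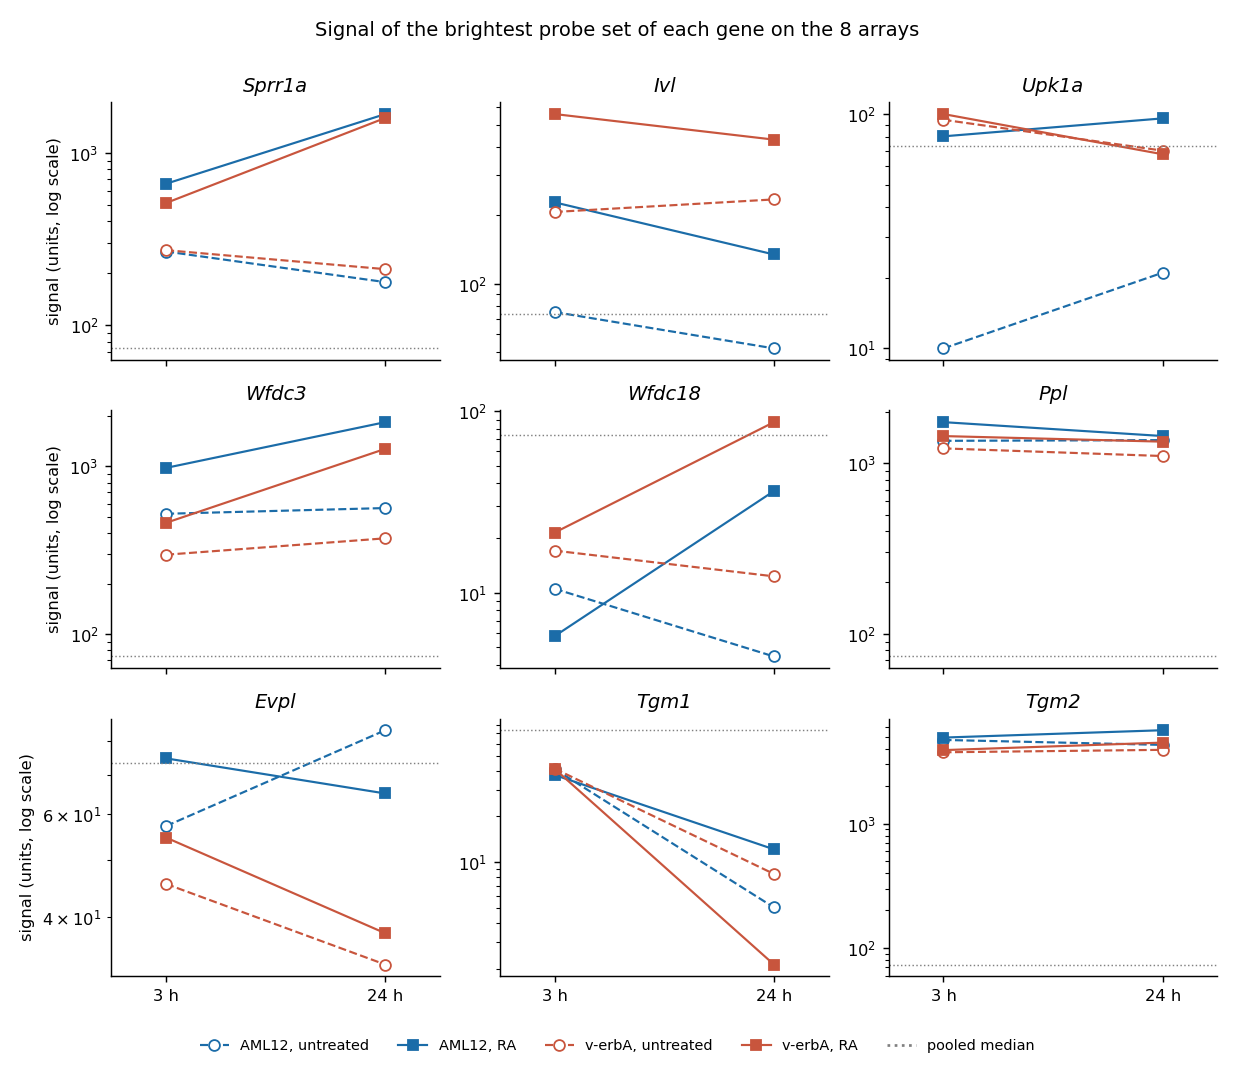
Signal in units (log scale, with its own range in each panel) at 3 h and 24 h for the brightest probe set of each gene, 1 array per point, with lines joining arrays of the same line and treatment and the pooled median of 73.5 dotted. All RA arrays of Sprr1a lie above its untreated arrays, the v-erbA arrays of Ivl lie above the AML12 arrays of the same treatment and time, and the untreated AML12 arrays of Upk1a lie apart from its other arrays.

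The scaffold and crosslinking genes moved little with RA. Ppl, the periplakin gene, was bright on all arrays, at 1357 and 1747 units untreated and with RA at 3 h and 1370 and 1448 at 24 h in AML12, and at 1225 and 1447 and then 1105 and 1342 with v-erbA. The RA ratio was 1.06 to 1.29 over the 4 pairs. Evpl, the envoplakin gene, lay near the pooled median and gave 57.23 and 74.75 at 3 h and 83.54 and 65.08 at 24 h in AML12, with the order of RA and untreated reversed between the times. With v-erbA it was dim on all 4 arrays, from 33.12 to 54.67 units.

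Tgm2 was read by 5 bright probe sets and a dim one. The third brightest by mean signal gave 3788 and 4395 units at 3 h and 4075 and 5304 at 24 h in AML12, untreated and with RA, and 3152 and 3405 and then 3499 and 4079 with v-erbA. Over the 5 bright probe sets RA minus untreated was 0.18 to 0.24 on the log2 scale, positive in all 4 pairs of each. Tgm1, the keratinocyte transglutaminase, was dim on all 8 arrays, with RA and untreated arrays at 37.35 to 41.08 units at 3 h and 2.137 to 12.17 at 24 h.

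Fitted over both lines and times, the RA effect was 2.0 ± 0.32 for Sprr1a, 1.22 ± 0.17 for the brighter Wfdc3 probe set and 1.17 ± 0.12 and 0.69 ± 0.17 for the Ivl probe sets. It was 0.82 ± 0.30 for Upk1a, 0.24 ± 0.05 for Ppl and 0.08 ± 0.14 for Evpl. Of the 12 probe sets tested, 5 lay past the threshold of an adjusted p under 0.05 used for the whole array, against 1.15% of all 24955 probe sets tested. They were Sprr1a, the brighter probe sets of Ivl and Wfdc3, and the third brightest and the dimmest of the bright Tgm2 probe sets. Upk1a and the other Ivl probe set were not among them. This contrast chose the genes, and nothing is read from the count. Over the array 167 probe sets were higher and 119 lower with RA, or 233 and 94 after each array was centred on its median, and the call count fell from 286 to 25 without the mean-variance trend of the fit.

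**Figure D2:**
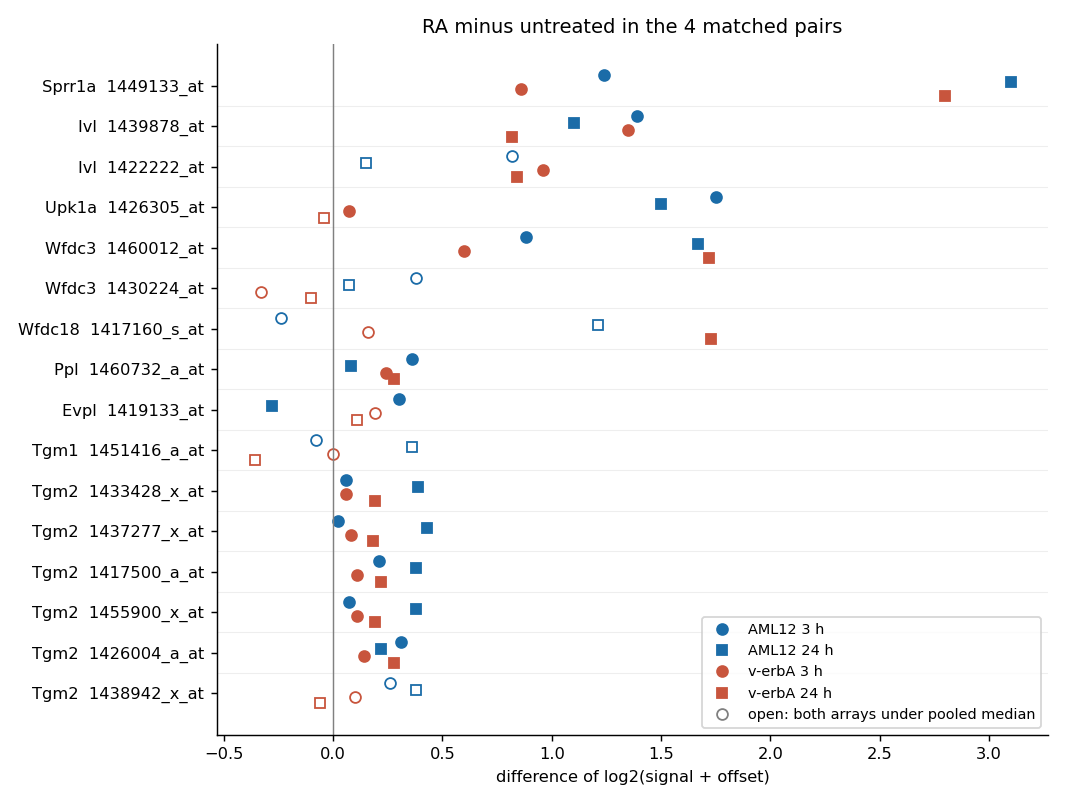
Difference of log2(signal + 19.9) between RA and untreated arrays (x axis, log2 units) in the 4 matched pairs for all 16 probe sets, with colour for the line, shape for the time and open symbols where both arrays were under the pooled median. Sprr1a reaches 3.10 in AML12 and 2.80 with v-erbA at 24 h, while the AML12 and v-erbA points of Upk1a lie apart.

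The change of the RA response between 3 h and 24 h, with times as titled, was tested next. It grew for Sprr1a, from 1.05 ± 0.12 at 3 h to 2.95 ± 0.12 at 24 h on the log2 scale, a difference of 1.89 ± 0.17 (95% interval 1.51 to 2.28, limma adjusted p = 0.0245). Sprr1a was 1 of the 12 probe sets of these genes that passed, against 0.00801% of all tested, which is 2 of 24955 (1799 at an unadjusted p under 0.05). The other was Rnase4, a secreted ribonuclease gene, whose response grew by 3.49 ± 0.32. The difference was positive in both lines, as the Sprr1a log2 responses were 1.24 and 3.10 in AML12 and 0.86 and 2.80 with v-erbA.

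The size of the Sprr1a difference varied from 1.69 to 2.10 over all settings tried, but its adjusted p did not stay under the threshold. It was 0.743 without the mean-variance trend. It was 0.145 without the untreated AML12 array of 3 h and 0.0578 without that of 24 h, 0.0966 without the AML12 RA array of 24 h, 0.219 without the untreated v-erbA array of 3 h and 0.0913 without the v-erbA RA array of 3 h. The untreated signal also moved between the times, from 267.6 to 177.9 in AML12 and from 272.4 to 211.5 with v-erbA, and the RA signal from 660.7 to 1673 and from 511.1 to 1588.

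The brighter Wfdc3 probe set showed a smaller difference in the same direction, 0.95 ± 0.17 (95% interval 0.57 to 1.33), with an RA response of 0.74 ± 0.12 at 3 h and 1.69 ± 0.12 at 24 h. It did not pass (limma adjusted p = 0.302). The brighter Ivl probe set leaned the other way, with 1.37 ± 0.15 at 3 h and 0.96 ± 0.15 at 24 h, and its difference of -0.40 ± 0.21 did not pass (limma adjusted p = 0.735). The bright Tgm2 probe sets differed by 0.02 to 0.25, with adjusted p of 0.621 or more. For Upk1a the interval was wide, from -1.59 to 1.24.

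**Figure D3:**
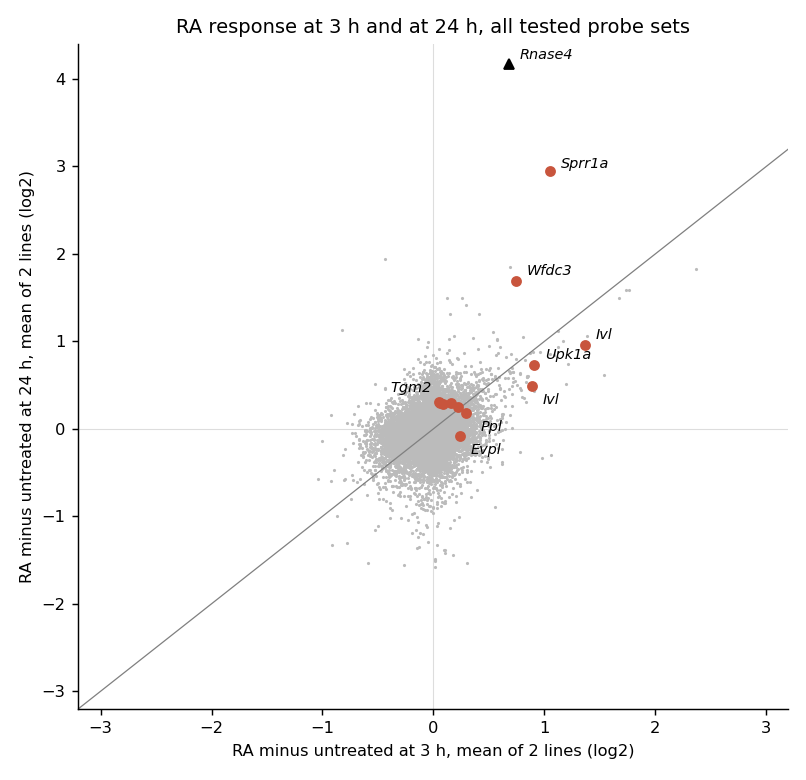
RA minus untreated at 3 h (x axis) against 24 h (y axis), each the mean of both lines in log2 units, for all 24955 probe sets tested (grey), the 12 of these genes (red) and Rnase4 (black triangle), with the line of equal response. Sprr1a lies at 1.05 and 2.95 and Wfdc3 at 0.74 and 1.69, above the line, while both Ivl probe sets lie below it.

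The comparison of lines asked how these genes differed in the transfected cells, with 4 pairs of arrays sharing treatment and time. Ivl was higher with v-erbA, and Ppl, Tgm2 and Wfdc3 were lower. Of the 12 probe sets, 2 were higher and 8 lower, 10 in all, against a background of 49.7% of all probe sets tested (12403, of which 6348 were higher and 6055 lower). The 5 probe sets of Tgm2 share a gene and count for much of the 8. The second Ivl probe set and Evpl passed the filter only through 2 arrays of the line in which they were higher, so they had to differ and support nothing. With at least 4 of 8 arrays required above the pooled median, which leaves both out, 1 probe set was higher and 7 were lower.

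The brighter Ivl probe set was higher with v-erbA by 1.46 ± 0.12 (limma adjusted p = 9.57e-06) and in 4 of 4 pairs. The ratio of v-erbA to AML12 was 2.76 at 3 h untreated, 2.45 at 3 h with RA and 3.2 at 24 h with RA, and at 24 h untreated, where AML12 was dim, v-erbA was at least 2.73-fold higher. The second Ivl probe set is given as a description. Its lowest v-erbA signal, 53.82, was just above its highest AML12 signal, 52.97, and since all AML12 arrays were dim the difference is given as at least 1.09-fold.

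The brighter Wfdc3 probe set was lower with v-erbA by -0.73 ± 0.17 on the log2 scale (limma adjusted p = 0.00604) and in 4 of 4 pairs, with pair ratios of v-erbA to AML12 from 0.471 to 0.693. Thus Wfdc3 and Ivl, both higher with RA, differed in opposite directions between the lines. Ppl was lower by -0.21 ± 0.05 (limma adjusted p = 0.00612). For Evpl, also a description, the highest v-erbA signal of 54.67 was under the lowest AML12 signal of 57.23. No fold is given for Evpl because the v-erbA arrays were dim and the AML12 arrays averaged no higher than the pooled median on the log2 scale.

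The 5 bright Tgm2 probe sets were lower with v-erbA by -0.23 to -0.33, each in 4 of 4 pairs (limma adjusted p of 0.000196 to 0.00241). These are small changes, and the ranges of the lines overlapped for each, as for the third brightest with 3788 to 5304 units in AML12 and 3152 to 4079 with v-erbA. Sprr1a differed by -0.05 ± 0.32 with a 95% interval from -0.75 to 0.66 (limma adjusted p = 0.918), an interval that leaves room for a difference either way.

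Upk1a was 0.73 ± 0.30 higher with v-erbA and did not pass (limma adjusted p = 0.0685). With all 2-way interactions in the model, a fit with 1 residual degree of freedom, the same difference passed. It passed when the RA array of 24 h was left out, at 0.99 without that of AML12 (limma adjusted p = 0.0202) and at 1.04 without that of v-erbA (limma adjusted p = 0.0135). Untreated, Upk1a was at least 1.23-fold higher with v-erbA at 3 h, and both arrays were dim at 24 h. The gene was chosen partly on its RA response in AML12, which uses the same untreated AML12 arrays. The untreated comparison is therefore a description. With RA the signals in AML12 and with v-erbA were 80.54 and 100.3 at 3 h and 96.13 and 67.5 at 24 h. Of the 4 urothelial markers tested 3 were higher with v-erbA (Pparg 1.05, Krt20 0.50, Foxa1 0.38) and Upk2 did not pass (-0.12), beside the 49.7% of all probe sets called for line. The summed signal of all 6 was 1876 to 2383 units in AML12 and 2750 to 3054 with v-erbA. Most of that sum was Foxa1, at 1169 to 1709 units in AML12 and 1724 to 2177 with v-erbA, so the sum says little of the uroplakins. The uroplakin genes Upk1b and Upk3a were under the pooled median on every array, and the part of these markers in the Upk1a difference was not tested.

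Of 8 squamous keratinocyte markers 3 were higher with v-erbA (Krt10 0.45, Krt5 0.33, Krt6a 0.25) and 1 lower (Klf4), or 2 and 2 with arrays centred on their median, a share close to the 49.7% of the whole array. Klf4 passed the filter only through 2 AML12 arrays. Their summed signals overlapped, at 841.1 to 1282 units in AML12 and 952.2 to 1260 with v-erbA, and their part in the Ivl difference was not tested. Of 8 hepatocyte markers 1 was higher with v-erbA and 4 lower, of 5 simple epithelium markers 1 and 1, and of 3 fibroblast markers 1 and 1. Dcn, the fibroblast marker counted as higher, passed the filter only through the v-erbA arrays, so it had to differ. It gave 126.1 to 148.7 units there and 18.84 to 51.78 in AML12. The fibroblast markers Col3a1, Pdgfra and Thy1 were dim on every array. The line difference of the brighter Ivl probe set passed in all 17 other settings, from 1.14 to 1.64.

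**Figure D4:**
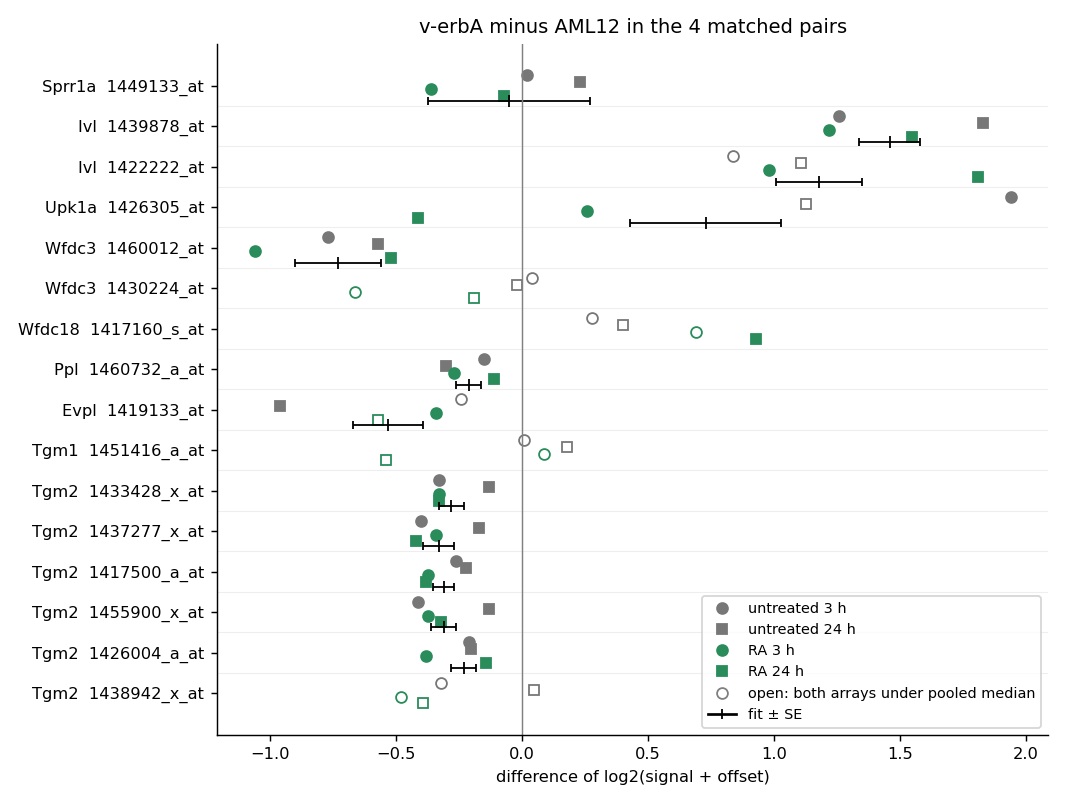
Difference of log2(signal + 19.9) between v-erbA and AML12 arrays (x axis, log2 units) in the 4 pairs matched by treatment and time for all 16 probe sets, with open symbols where both arrays were under the pooled median and black bars for the limma estimate ± SE of the 12 tested. Ivl lies to the right in all pairs, the brighter Wfdc3 probe set, Ppl, Evpl and the bright Tgm2 probe sets to the left, and Sprr1a on both sides of 0.

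The crossed design asks whether the RA response differs in the presence of v-erbA. Over the array 0% of the 24955 probe sets passed for that difference (limma, 471 at an unadjusted p under 0.05). The genes were chosen with RA responses in view, so their own values are a description. The RA response with v-erbA minus that in AML12 was -0.34 ± 0.64 for Sprr1a (95% interval -1.79 to 1.11), -0.16 ± 0.24 for the brighter Ivl probe set (-0.71 to 0.39) and -0.12 ± 0.36 for Wfdc3 (-0.92 to 0.69). These intervals do not show that the lines responded alike. Upk1a had the widest difference of these genes, -1.61 as measured, from 1.63 in AML12 and 0.01 with v-erbA. Upk1a was chosen partly on its AML12 response, its AML12 arrays were dim untreated, and the value moved to -2.50 with an offset of 1 and to -0.85 with the offset at the pooled median.

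Time, as given in the sample titles, was read as 24 h minus 3 h over 4 pairs of arrays. What else differed between the arrays of the times cannot be told apart from it. Of the 12 probe sets 3 were higher at 24 h and 0 lower, against 30.4% of all probe sets tested in either direction (4140 higher and 3440 lower, or 3280 and 4229 with arrays centred on their median). With centred arrays 3 of the 12 were higher and 2 lower, the lower ones being the brighter Ivl probe set (limma adjusted p = 0.0428) and Ppl (limma adjusted p = 0.0284), and with all 2-way interactions 5 were higher and 2 lower. The brighter Wfdc3 probe set was higher by 0.68 ± 0.17 (limma adjusted p = 0.0142, or 0.0524 without the AML12 RA array of 3 h). Its untreated arrays differed little, from 521.3 to 563.9 in AML12 and from 297.2 to 372.2 with v-erbA, and its RA arrays more, from 978.8 to 1834 and from 460.6 to 1271.

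Of the 5 bright Tgm2 probe sets, the third brightest and the dimmest (1054 to 1682 units over the arrays) were higher at 24 h by 0.20 ± 0.04 and 0.25 ± 0.05 (limma adjusted p of 0.00481 and 0.00251). The other bright ones were within 0.01 to 0.08 and did not pass, so the probe sets of this gene disagree on time. Ivl differed by -0.32 ± 0.12 (limma adjusted p = 0.0675) and Ppl by -0.13 ± 0.05 (limma adjusted p = 0.0778). Sprr1a differed by 0.51 ± 0.32 (limma adjusted p = 0.255), with its untreated arrays lower and its RA arrays higher at 24 h. The 4 Tgm1 arrays of 3 h all lay above those of 24 h, but every one was dim.

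The difference between lines was compared between the times as well. Of the 12 probe sets 0 passed (limma, 1 at an unadjusted p under 0.05), against 0.112% of all tested. The brighter Ivl probe set differed by 1.24 ± 0.14 at 3 h and 1.69 ± 0.14 at 24 h, a change of 0.45 ± 0.20 (95% interval 0.00 to 0.89, limma adjusted p = 0.574).

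Other genes of the families were read from lists compiled with earlier results of these data known, with the brightest tested probe set standing for the gene. Of 54 cornified envelope and keratinocyte differentiation symbols 42 were on the platform, 25 of them dim and 17 tested. For RA 0 of the 17 passed (limma, 1 at an unadjusted p under 0.05) and their median was -0.06, beside -0.01 over all probe sets. The Sprr family members Sprr1b, Sprr2f, Sprr2h, Sprr2i and Sprr3 were dim, as were Lor (loricrin) and Flg (filaggrin), the main proteins of the mature envelope and granular layer. Between the lines 3 of the 17 were higher with v-erbA and 3 lower, against 49.7% of all probe sets tested. Among them Sbsn, which encodes suprabasin, was higher by 0.38 and S100a10, an annexin-binding S100 gene, was lower by -0.17. Of these 6, Scel, Lce3a and Anxa1 passed the filter only through arrays of the line in which they were higher. Anxa1, the annexin A1 gene, gave 136 to 275.9 units in AML12 and 40.22 to 41.93 with v-erbA.

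Over time 3 of these 17 were higher at 24 h and 5 lower, against 30.4% of all probe sets tested in either direction. They included Lce1h, a late cornified envelope gene, higher by 1.21, and S100a10, lower by -0.19. Casp14, the keratinocyte caspase gene, Lce3b and Rptn, which encodes repetin, passed the filter only through the 4 arrays of the time at which they were higher. Sprr2k, lower at 24 h by -0.54, passed it only through arrays of 3 h. The time calls of Casp14, Lce3b, Rptn and Sprr2k therefore support nothing. Casp14 gave 438.6 to 612.6 units at 3 h and 24.03 to 37.13 at 24 h, and Rptn 11.07 to 21.09 at 3 h and 106.8 to 218.8 at 24 h.

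All 10 plakin and desmosome partner genes listed were on the platform and 7 were tested. With v-erbA 4 were lower and 1 higher, against 49.7% of all probe sets tested in either direction. Their median was -0.26 beside 0.02 over all probe sets. The lower ones were Eppk1 (epiplakin, -0.61), Pkp2 (plakophilin, -0.52), Jup (plakoglobin, -0.31) and Plec (plectin, -0.26), and Dst (dystonin) was higher by 0.15. Ppl, at -0.21, differed in the same direction as these 4. For RA 0 of the 7 passed (limma, 1 at an unadjusted p under 0.05).

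Among other transglutaminases 1 of 6 on the platform was tested, Tgm3, and it passed for neither line, time nor RA. Among other uroplakins Upk2 was the only one of 5 tested, and it was higher at 24 h by 1.99 and did not pass for line (-0.12) or RA (0.27). Of 15 other WAP domain genes on the platform 6 were tested. Slpi, the secretory leukocyte protease inhibitor gene, was lower with v-erbA by -0.85, as was Wfikkn1 by -0.44, while Wap was higher by 0.37. Of all probe sets tested 49.7% were called for line. Wfikkn1 exceeded the pooled median only on the 4 arrays of 24 h and Wap only on the 4 of 3 h. Their line differences thus rest partly on dim arrays. For RA 0 of the 6 passed (limma, 0 at an unadjusted p under 0.05), against 1.15% of all tested.

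Genes known to respond to RA gave a reference for the treatment. Of the 6 tested 2 were higher with RA and 0 lower, against 1.15% of all probe sets tested. This list too was compiled with earlier results of these data known, so it is no independent check of the treatment. Nrip1, a nuclear receptor corepressor gene, rose by 1.67 ± 0.11 (limma adjusted p = 0.000955) and Dhrs3, a retinaldehyde reductase gene, by 0.67 ± 0.10 (limma adjusted p = 0.0187). Rarb, an RA receptor gene, differed by 0.86 ± 0.18 and was not called (limma adjusted p = 0.0691). It met the filter only through its RA arrays of 3 h, at 82.71 and 78.46 units, so its difference is a description. Cyp26a1, which encodes an RA-degrading enzyme, differed by 0.23 ± 0.12 and lay near or under the pooled median, at 40.82 to 81.81 units. Nrip1 changed its RA response between the times by -0.18 ± 0.23 and Dhrs3 by -0.48 ± 0.14, and neither passed, while that of Sprr1a grew by 1.89.

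The 3 protein-coding neighbours on each side of the 9 genes made 54 positions, of which 28 were tested. For RA 2 lay past the threshold, against 1.15% of all probe sets, but these were Ivl and Sprr1a as neighbours of each other, which were chosen on that response, and nothing is read from the count. In the order of the RefSeq annotation a single protein-coding gene, Sprr4, lies between them, and no probe set was matched to it. The neighbours Sprr2k (-0.22 with RA) and Lce1a1 (-0.12 with RA) did not pass, and Sprr1b, Sprr3 and Smcp were dim.

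Pattern likeness was measured as Pearson's r of log2 values over the 8 arrays and is given with no p. The probe sets compared named 1 gene, were tested and spanned at least 1 log2 unit, and they covered 3023 genes. For Sprr1a the highest values were those of Rnase4 (0.953), Pde2a (0.925), Epn2 (0.898), Synpo (0.893) and Acot2 (0.890). For Ivl they were those of Stk17b (0.982), Gse1 (0.977), Pcdh1 (0.971), the retinol dehydrogenase gene Rdh10 (0.970) and the transferrin receptor gene Tfrc (0.961). Among the genes themselves Sprr1a correlated with Wfdc3 at 0.87 and with Ivl at 0.44, Ivl with Upk1a at 0.75 and with Wfdc3 at 0.02, and Wfdc3 with the third brightest Tgm2 probe set at 0.92. All points share the same 8 arrays, and the genes were chosen on RA responses in them.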

How the data were processed

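Total RNA of 8 samples was labelled with biotin and hybridised to Affymetrix arrays, per the labels' protocols. The values the authors deposited are linear signal intensities from 0 to 12275 units, 1 for each probe set on an array. How they were summarized and scaled is not given in the sources used here. That scaling was kept. Line, treatment and time follow the sample titles, although 3 samples titled 24 h are described as 3 h. Of 45037 probe sets, 1 without a value was left out and 34944 named 1 gene through the platform annotation. Values were transformed to log2(signal + 19.9), the offset being the 20th percentile, and 24955 probe sets with at least 2 arrays above the pooled median were fitted with limma 3.58.1 in R 4.3.3. Fits had a mean-variance trend and Benjamini-Hochberg adjustment. The model was additive in line, treatment and time (4 residual degrees of freedom), or held 1 interaction (3). The script was tested on simulated data. Alternatives changed the offset, filter, scaling, trend, probe set choice or interactions, or left out 1 array. The genes and lists were chosen with earlier results of these data known. Named genes are these genes, the 5 most alike for Sprr1a and Ivl, and 2 to 4 examples per list. The number of arrays limits the precision. Figures used matplotlib 3.10.9 in Python 3.11.15.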

Additional observations from a re-analysis of the deposited data

Results flagged for a closer look

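The RA response of Sprr1a differed between the times, by 1.89 on the log2 scale (limma adjusted p = 0.0245), with the same direction in both lines. It was the 1 result of these genes for which an effect was found to differ between groups by a test of the difference itself. The call depended on the setting. Without the mean-variance trend it was lost (limma adjusted p = 0.743), as it was in several fits with 1 array left out.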

How the results depend on the processing

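No result reversed its direction while called, and the line differences of the brighter Ivl and Wfdc3 probe sets, Ppl and the bright Tgm2 probe sets passed in every setting in which they were fitted. With 1 probe set per gene fewer features were tested by construction, and the counts were 6426 for line (5 of these genes), 4179 for time (1), 141 for RA and 12 for line by time. For the other settings the cause was not tested. The probe sets called for the RA by time difference were 1 with the offset at the pooled median, 1 after quantile normalization, 0 without the mean-variance trend, 268 with all 2-way interactions and 0 to 98 when 1 array was left out. Of these genes 0 passed without the trend, 3 with all 2-way interactions and 0 to 1 with an array left out. The line by time calls were 50 with the offset at the pooled median, 51 without the dim filter, 15 with at least 4 of 8 arrays above the pooled median, 51 with arrays centred on their median, 18 without the trend, 377 with all 2-way interactions and 10 to 311 with an array left out. The time calls among these genes were 5 with centred arrays (2 of them lower), 7 with all 2-way interactions and 2 to 6 with an array left out. The line by RA calls were 24 with all 2-way interactions and 0 to 8 with an array left out, 8 being without the AML12 RA array of 3 h. The RA calls were 25 without the trend, 1481 with all 2-way interactions and 62 to 286 with an array left out. Signals under the pooled median limit what can be said of Upk1a, Wfdc18, Evpl and Tgm1.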
